A study of Drosophila melanogaster with 48 samples.

Results

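DNA transposons are mobile elements that move as DNA: a transposase binds the inverted repeats at the ends of an element, excises it and inserts it elsewhere. The fly genome holds many copies, most of them shortened or mutated, and a large share lies in the introns of genes, on chromosome 4 and in the gene-poor chromatin beside the centromeres. In the fly, small RNAs bound by Argonaute proteins and the heterochromatin they help to set up keep such elements silent, and the piRNA branch of this system is best known from the germline.

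Described here are the annotated insertions of DNA transposons other than INE-1 in RNA-seq count tables of the adult Drosophila melanogaster brain. A row was a member when it was no gene row and its name began with 1 of 22 family names, among them 1360 (a relative of the P element), FB (foldback), HB, pogo, the Tc1, mariner and Bari families and the transib families. This gave 695 insertions among 23932 rows, of which 6063 were transposon insertions and 17869 were genes. Of the families, 19 had rows. The names hobo, S-element and P-element matched none, and the 59 insertions that the tables name H and the 77 they name S were not counted as members. A further 487 insertion rows carried no name and held no count in any library.

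The flies were progeny of nSyb-GAL4 males and w1118 females, and 4 kinds were compared: males (M), females mated with wildtype males (F), virgin females (V), and females mated with males that lack sex peptide (SP0-mated, SP). Flies received very mild head trauma on day 3 after eclosion (D3Inj) or a sham treatment, and brains were taken on day 4 (D4) or day 45 (D45). Each of the 16 groups had 3 libraries of pooled brains from cohorts of 40 flies, 48 libraries in all. In 47 of the 48 tables the column header named another sample than the deposited record; the header was used throughout, and in it "young" was read as D3Inj. The roX RNAs, which only males express strongly, followed the sex in the header. Library totals ran from 21495740 to 60637359 counts, with a median of 35543946. The neuron markers elav, nSyb, brp, Syt1 and para were abundant in every library. Markers of the gut reached 1831 CPM (the read count normalised to library size) in sham F D4 replicate 3, 1734 in D3Inj M D4 replicate 3, 1237 in sham V D4 replicate 3 and 1189 in sham V D4 replicate 2, against at most 147 elsewhere.

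The members held 0.117% of all counts, and 0.103% to 0.131% in single libraries. All transposon insertions together held 0.830%. Of the 695 members, 539 had at least 1 count and 156 had none in any library. Their lengths ran from 24 to 16462 bp with a median of 631 bp, and 59 overlapped another member. Counts were concentrated by position: the 318 insertions inside introns held 77.5% of the members' counts and the 313 outside genes 14.1%. The 7 that touch a coding exon held 4.40%, the 44 in untranslated regions 3.52% and the 13 in noncoding exons 0.454%. The 189 insertions on the strand of the gene around them held 41.3%, and the 193 on the opposite strand 44.6%. Chromosome 4, with 97 insertions, held 37.6% of the counts, ahead of 3L with 15.03% from 110 insertions and 2R with 14.8% from 167. Reads of an unspliced host transcript that crosses an intronic insertion and reads of a transposon transcript cannot be told apart in these tables. The insertions are those of the reference genome, and whether the flies used here carry each of them was not tested.

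Among families, 1360 was the most abundant, with 305 insertions and 622860 counts over the 48 libraries. FB followed with 324234 counts from 60 insertions and HB with 284446 from 61. Tc1 held 145463 counts, Tc1-2 109857, transib3 88773, hopper2 77154, Bari2 75688 and hopper 75539. The remaining families ran from 51376 counts (mariner2) down to 476 (transib1) and 427 (NOF). NOF is the coding sequence that some FB elements carry, and the counts of this family came from 1 of its 8 insertions. Likewise 1 of the 4 looper1 insertions held all 10136 counts of that family.

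The 12 insertions of highest mean level held 27.8% of the members' counts, and 10 of them lie in introns of genes. The highest was transib3{}1705 (dm6, chr4:297092-299241, plus strand), with a mean of 40.5 CPM over the 48 libraries. It lies in an intron of Syt7, a synaptotagmin, on the opposite strand. FB{}Pur-alpha[FB] (chr4:560886-562919, minus strand, intron of Pur-alpha, a nucleic acid binding protein) had 39.9 CPM. Per length, the order was different: hopper2{}4186 (chr2L:21385964-21386569, plus strand) had 59.1 CPM per kb against 18.9 for transib3{}1705 and 19.6 for FB{}Pur-alpha[FB]. It lies on the strand of nrv3, a beta subunit of the sodium-potassium pump, within an intron. Bari2{}1537 (chr4:894624-895820, minus strand) reached 28.0 CPM per kb in an intron of unc-13, a priming factor of synaptic vesicles, and Tc1-2{}5456 (chr4:346641-347726, minus strand) 19.3 in an intron of the calcium pump PMCA. Lower per length were HB{}515 (chr2L:21705310-21706714, plus strand, intron of nolo) at 14.4, S2{}1172 (chr3L:23233883-23234943, minus strand, intron of nAChRalpha4, a nicotinic receptor subunit) at 17.6 and Tc1{}1550 (chr4:1045363-1046764, plus strand, intron of the kinase CaMKII) at 13.0 CPM per kb.

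Further members of this group were transib4{}3834 (chr2R:4547834-4549659, minus strand, intron of Stlk) at 11.7 CPM per kb and FB{}nmo-FB-NOF (chr3L:8019755-8024109, minus strand, intron of the kinase gene nmo) at 5.70. FB{}1604 (chr3L:22743571-22751730, plus strand) reached 2.48 CPM per kb and overlaps a coding exon of SPoCk, a calcium pump of the secretory pathway. The only 1 of the 12 outside genes was 1360{}1514 (chr4:454066-455145, plus strand), at 30.2 CPM per kb. Within groups of 3 libraries the coefficient of variation of these 12 was 6.88% to 12.5%.

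The first comparison asked how the insertions differ between D45 and D4 brains. In sham flies, with the 4 kinds weighted equally, 60 of the 355 members tested were higher on D45 and 97 were lower, with an adjusted p under 0.05 in edgeR. This is 44.2% of the members tested, against 54.4% of all rows tested (28.6% higher and 25.9% lower). The median log2 difference of the members was -0.06, that of all insertions -0.11 and that of genes 0.02. The sum over all members was 1163 to 1327 CPM in the 12 sham D4 libraries, with a median of 1241, and 1004 to 1249 CPM in the 12 sham D45 libraries, with a median of 1093. The D45 sums lay mostly below the D4 sums and the groups overlapped. In D3Inj flies 61 members were higher and 93 lower (43.4%, against 55.4% of all rows). Here the sums were 1138 to 1364 CPM on D4, median 1212, and 1010 to 1228 CPM on D45, median 1098. The calls of both comparisons had 122 insertions in common (77.7% of the sham calls and 79.2% of the D3Inj calls). Of these, 53 were higher and 69 lower in both. The comparisons share no library, but they came from the same edgeR fit, with a common filter and a common estimate of each row's spread. The share in common among all rows was not counted, so whether members overlap more than other rows was not tested.

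By family sums, 2 families rose and 13 fell with age in sham flies (background 57.9% of the genes and family sums tested), and 1 rose and 11 fell in D3Inj flies (background 58.2%). The sum of family hopper2 was 44.5 to 56.5 CPM in sham D4 libraries, median 53.2, and 29.4 to 40.6 CPM on D45, median 35.4. All 12 D4 libraries lay above all 12 D45 libraries, and the log2 difference was -0.61 (SE 0.04). Most counts of this family came from 1 insertion, hopper2{}4186 in an intron of nrv3, so the sum largely follows that insertion. For family FB the range was 192 to 214 CPM on D4, median 202, and 154 to 195 CPM on D45, median 167, with a slight overlap and a log2 difference of -0.26 (SE 0.03). Family 1360 ranged from 335 to 393 CPM on D4, median 366, and from 305 to 383 CPM on D45, median 336. These ranges overlapped broadly, and the log2 difference was -0.15 (SE 0.03). Sums of looper1, S2, Tc1-2, Bari2, transib4, HB, hopper, transib3, Tc1 and Tc3 also fell, by 0.39 to 0.10 on the log2 scale. Most counts of S2, Bari2, transib4 and transib3 came from 1 intronic insertion each: S2{}1172, Bari2{}1537, transib4{}3834 and transib3{}1705. The families that rose were NOF, by 2.19 on the log2 scale (SE 0.39), and transib2, by 0.15 (SE 0.06, edgeR adjusted p = 0.0288). The NOF sum was too low on D4 to pass the filter there, so with age it could be called only as rising. transib2 was called in sham flies alone, and the difference between the treatments was not tested at this level. Values for mariner2 (-0.09), pogo (-0.08), transib1 (-0.27) and Bari1 (-0.00) did not pass the test.

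**Figure D1:**
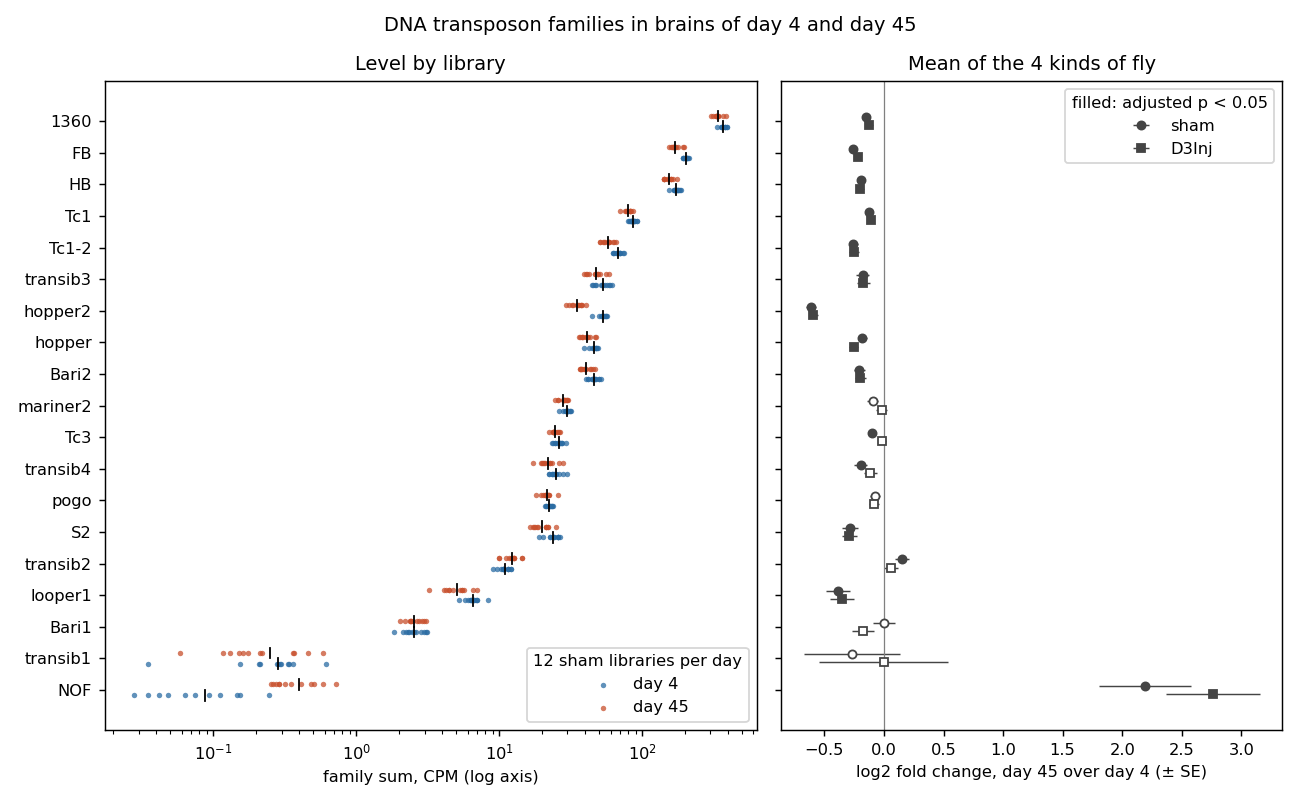
Left, sums of counts per family in CPM on a log axis for each of the 12 sham libraries of each day, with lines for the means. Right, the log2 difference between D45 and D4 per family with its SE in sham and D3Inj flies, filled where the test was passed. Most families sit slightly below 0. The lowest of those with many counts is hopper2, mostly from 1 insertion, and NOF, from 1 insertion, is far above. A library at 0 is not drawn on the log axis.

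The calls were counted by position, beside 28.6% of all rows higher and 25.9% lower, and the differences between positions were not tested. Of the members inside introns, 30 were higher and 66 lower of 224 tested in sham flies. Outside genes, 28 were higher and 23 lower of 111, with a median log2 difference of 0.10. On 3L, 22 were higher and 13 lower of 64, beside 738 higher and 637 lower of 2522 genes. Of these 22, 10 lie in 1 gene, AGO3, and 4 more within 250000 bp of it, as described below. On 3R, 2 were higher and 16 lower of 46, whereas 972 genes were higher and 786 lower of 3047. On chromosome 4, 6 were higher and 27 lower of 62, beside 26 higher and 53 lower of 104 genes. Insertions on the strand of their host (15 higher, 35 lower of 120) and opposite to it (17 higher, 39 lower of 124) had similar counts. Sums over the insertions outside annotated genes alone gave 4 families higher and 6 lower in sham flies. Then the calls of FB (-0.14, edgeR adjusted p = 0.123), hopper (-0.13, adjusted p = 0.113), hopper2 (-0.13, adjusted p = 0.317) and transib3 (-0.10, adjusted p = 0.257) were lost. S2 turned from -0.28 to 0.58 (adjusted p = 0.00431) and transib4 was at 0.03. Bari1, at 0.99 (adjusted p = 0.00988), and mariner2, at -0.16 (adjusted p = 0.0161), passed the test here and not with all insertions. The Bari1 sum outside genes was near the floor, with 0.0508 to 0.806 CPM over the 48 libraries and a mean of 0.388.

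The largest group of insertions that rose together lay in AGO3, an Argonaute gene of the piRNA pathway on chr3L:23554593-23689640, plus strand, beside the centromere. AGO3 holds 12 members of 6 families, all in its introns, of which 10 had counts. These 10 passed the filter on low counts and rose in sham and in D3Inj flies. Of all rows tested, 28.6% were called higher in sham flies. HB{}1803, with at most 7 counts in any D4 library, passed the filter through D45 alone and could be called only as rising. The same held for 1360{}2397 and 1360{}5894, which had too few counts in the D4 libraries. The largest difference was that of transib3{}2949 (chr3L:23686691-23687810, plus strand, intron, host strand). In the 12 sham D4 libraries it had 0.0696 to 0.497 CPM, median 0.185, and in the 12 sham D45 libraries 1.11 to 2.25 CPM, median 1.88. Every D45 library was above every D4 library. The log2 difference was 3.11 (SE 0.24, edgeR adjusted p = 1.2e-14). In D3Inj flies the ranges were 0.0273 to 0.529 CPM on D4, median 0.229, and 1.54 to 3.21 CPM on D45, median 1.91, with a log2 difference of 2.88 and again no overlap.

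The other AGO3 insertions came from other families and from both strands. Tc1-2{}4610 (chr3L:23654285-23655248, plus strand) was higher by 2.37 on the log2 scale in sham flies, HB{}1803 (chr3L:23555332-23555470, minus strand) by 2.14 and 1360{}4149 (chr3L:23591540-23592122, plus strand) by 2.12. Opposite to the host, mariner2{}1821 (chr3L:23570563-23571406, minus strand) was higher by 1.96 and mariner2{}2921 (chr3L:23649728-23650186, minus strand) by 1.90. The remaining ones were 1360{}2399 (1.62), Tc1{}5901 (1.51), 1360{}2397 (1.51) and 1360{}5894 (1.21, edgeR adjusted p = 0.0485). The call of 1360{}5894 was lost in 18 of the fits that left out 1 library, without the filter on low counts and without the libraries with gut markers. The gene AGO3 itself had 0.507 to 2.29 CPM in sham D4 libraries, median 0.974, and 1.49 to 5.89 CPM on D45, median 3.47, and rose by 1.70 on the log2 scale (SE 0.24) in sham and by 1.90 in D3Inj flies. Sham F D4 replicate 3, the library with the highest gut markers, had the highest D4 sum over these insertions, 6.88 CPM against 1.83 to 3.58 in the other 11 sham D4 libraries. The part of the gut markers in this was not tested.

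**Figure D2:**
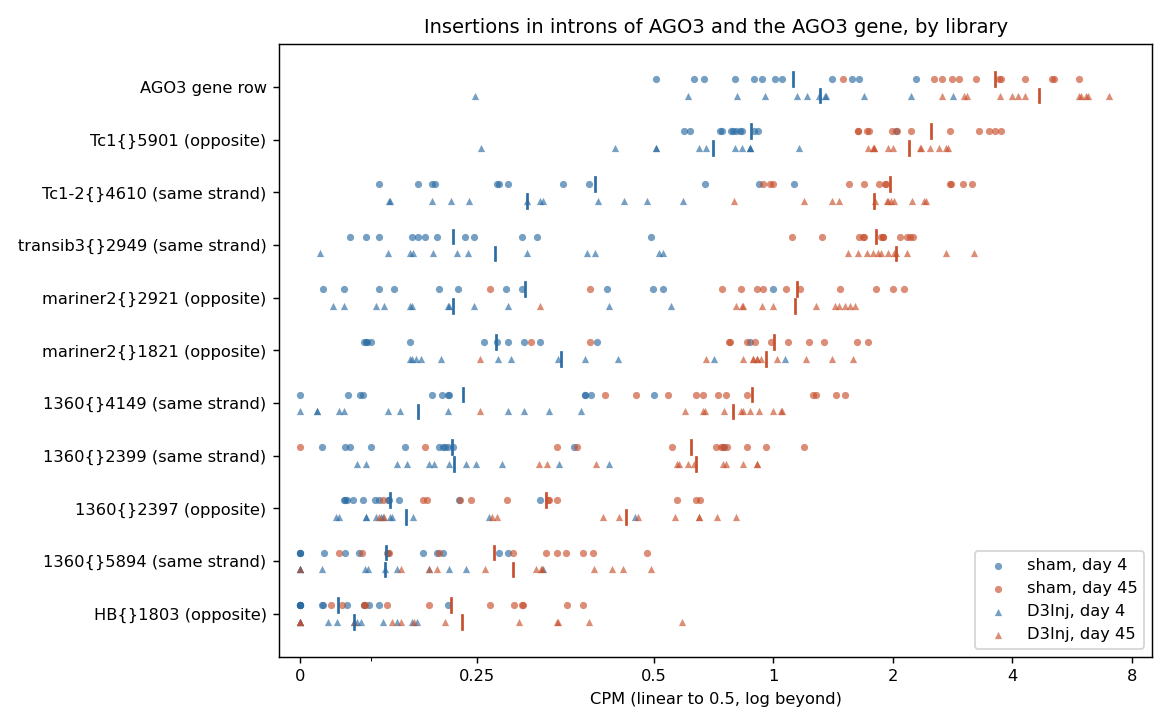
Level in CPM (linear to 0.5, log beyond) of the 10 insertions in AGO3 with counts and of the gene AGO3, 1 point per library, with lines for the means of 12 libraries. In every row the D45 means lie to the right of the D4 means, and for transib3{}2949 the D45 libraries, from 1.11 CPM, lie wholly beyond the D4 libraries, up to 0.529 CPM.

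Within 250000 bp of AGO3 but outside it lay 27 further members, of which 14 were tested. In sham flies 4 of them rose, a share equal to the 28.6% of all rows called higher, and in D3Inj flies 6 rose, against 28.3% of all rows. The others did not pass the test in edgeR, and the 13 that were not tested had too few counts. The nearest was HB{}1802, 356 bp upstream of the gene, with 9 counts in 4 of 12 sham D4 libraries and 53 counts in 9 sham D45 libraries, a log2 difference of 2.60 (SE 0.79). On the other side transib3{}2950, 2063 bp away, had 39 counts in 8 libraries and 94 in 12, with a log2 difference of 2.04 (SE 0.57). Farther out, 1360{}5881 had 4 counts in 2 sham D4 libraries and 103 counts in 12 sham D45 libraries, and mariner2{}1819 had 19 in 6 and 87 in 10. With so few counts on D4, HB{}1802 and 1360{}5881 passed the filter through D45 alone and could be called only as rising.

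Other genes also held members that moved together. In nrv3 all 3 insertions tested fell. hopper2{}4186 had 35.7 to 48.3 CPM in sham D4 libraries, median 44.5, and 22.3 to 31.0 CPM on D45, median 27.4. No D45 library reached the D4 range, and the log2 difference was -0.70 beside -0.94 for nrv3. All 4 insertions in nolo fell in the same way: HB{}515 had 20.4 to 27.8 CPM on D4, median 25.5, and 13.4 to 17.8 CPM on D45, median 16.1, without overlap. Its log2 difference was -0.63, whereas the gene nolo stood at -0.05. In Syt7 3 of 3 insertions tested fell, by 0.24 to 0.30 on the log2 scale, beside -0.48 for the gene Syt7. In nAChRalpha4 3 of 3 fell and in CG34357 5 of 6. Of all rows, 25.9% were called lower, and these genes were picked after their values were seen. Members of other genes did not move together. In hrm 0 of 4 tested were called in sham flies, in zfh2 and in Tif-IA 0 of 3, and in MED26 and lncRNA:CR44997 1 of 5 fell.

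Rises with age were found in genes of other kinds. Marf1, which regulates RNA in the female germline, holds 9 insertions, of which 6 had counts and 4 passed the filter on low counts, with most of their counts on D45. In the 12 sham libraries of each day, 1360{}1590 had 5 counts on D4 and 98 on D45, 1360{}573 had 30 and 122, Bari2{}574 had 25 and 126, and mariner2{}1651 had 26 and 54. These 4 passed the test in edgeR, and the gene Marf1 rose by 1.55 on the log2 scale. With so few counts on D4, these 4 passed the filter through D45 alone and could be called only as rising. In stw, the laccase gene straw, 3 of 3 tested rose by 0.77 to 1.60, beside 2.48 for stw. In Nipped-A 3 of 4 rose in sham flies but 1 of 4 in D3Inj flies. Of all rows, 28.6% were called higher in sham and 28.3% in D3Inj flies. 1360{}4814 (chr3R:18922054-18922275, plus strand, 222 bp, intron of Xrp1) had 3.23 to 5.91 CPM in sham D4 libraries, median 5.22, and 5.90 to 10.9 CPM on D45, median 9.95. The highest D4 library lay just above the lowest D45 library, and the log2 difference was 0.93 beside 1.05 for Xrp1, a stress-induced transcription factor. 1360{}ci[1482] (chr4:52953-53996, minus strand) rose by 1.20 beside 0.68 for ci, the transcription factor of Hedgehog signalling, and Tc1{}1529 (chr4:773208-773805, plus strand) by 2.02 beside 2.01 for bt, which encodes a giant muscle protein. pogo{}5970, 54 bp in Ir41a (chr2R:4924184-4924237), rose by 2.25 beside 0.90 for Ir41a, an ionotropic receptor. With at most 11 counts in any D4 library, pogo{}5970 passed the filter through D45 alone and could be called only as rising.

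Across the 238 insertions with a tested host, in 159 genes, the insertion's and the host's log2 differences in sham flies had a Pearson correlation of 0.77 and a Spearman correlation of 0.54. These are descriptions across insertions that share hosts and libraries. The sign was shared by 174 (73.1%). Where insertion and host both passed the test, 82 of 89 shared the sign (92.1%). Without the AGO3 insertions Pearson's correlation was 0.68, and it was 0.78 on the host's strand and 0.77 opposite to it. Of the 7 called pairs with unlike signs, HB{}RR50434 (chr3L:24251064-24252708, plus strand) was at 0.36 beside -0.54 for Snap25, a SNARE that acts in synaptic vesicle fusion. 1360{}1539 was at 0.27 beside -0.23 for unc-13, and FB{}kek5-FB-NOF at -0.34 beside 0.21 for kek5.

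**Figure D3:**
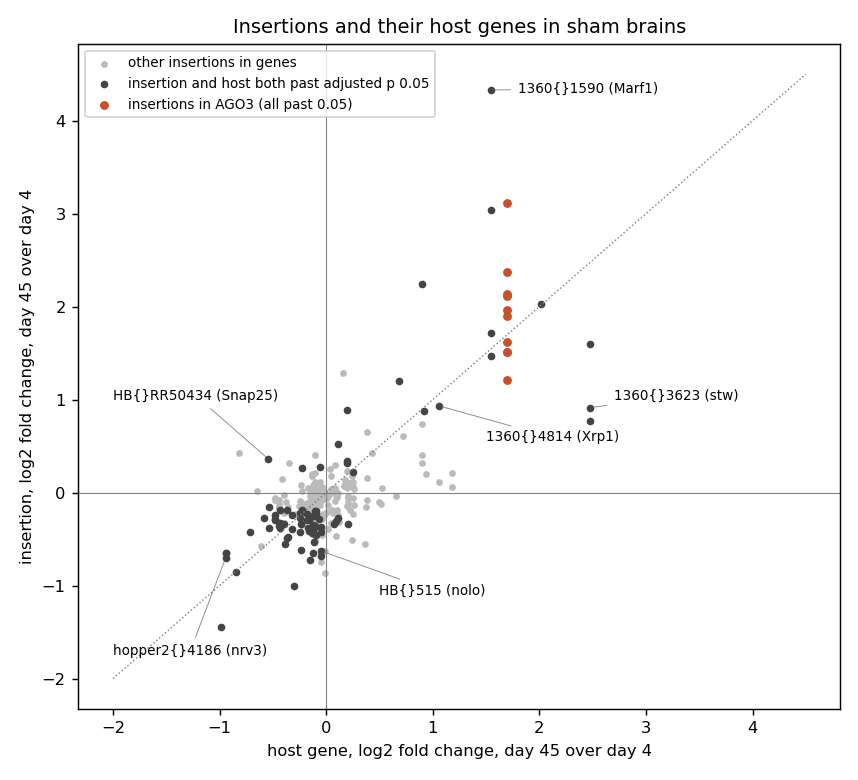
Log2 difference between D45 and D4 of each insertion inside a gene against that of the gene, in sham flies, with 238 insertions in 159 genes. Points spread along the diagonal, the AGO3 insertions lie at the upper right, and HB{}515 lies below 0 beside a gene, nolo, near 0.

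Some insertions outside genes also differed with age. 1360{}1514 had 33.7 to 42.1 CPM in sham D4 libraries, median 39.5, and 23.4 to 30.7 CPM on D45, median 26.4, with no overlap. Its log2 difference was -0.56. 1360{}3667 (chr2R:4615507-4616563, plus strand) fell by 1.02 and 1360{}4113 (chr2L:20148651-20149590) rose by 1.16. NOF{}1599 (chr2R:6324061-6340522, minus strand), the longest member at 16462 bp, had 33 counts in 11 of the 12 sham D4 libraries and 167 counts in 12 sham D45 libraries. This is 0 to 0.246 CPM on D4, median 0.0689, and 0.254 to 0.716 CPM on D45, median 0.335, without overlap. It rose by 2.21 in sham flies and by 2.78 in D3Inj flies. With so few counts on D4, NOF{}1599 passed the filter through D45 alone and could be called only as rising. On 3L, a row of neighbours outside genes rose together: transib3{}1112 by 0.33, S2{}1603 by 0.52, mariner2{}1115 by 0.65, HB{}3941 by 0.70 and 1360{}1113 by 0.77.

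Genes that act on transposons were read beside the members. Of 46 genes of small RNA and heterochromatic silencing, 43 were tested, and 26 rose and 7 fell with age in sham flies, against 28.6% higher and 25.9% lower among all rows. In D3Inj flies 25 rose and 6 fell. The piRNA genes vret (2.19), spn-E (2.08), fs(1)Yb (1.86), krimp (1.79), piwi (1.52), vas (1.51) and qin (1.16) were among those that rose, with log2 differences in sham flies in parentheses. tej (-0.55), Panx (-0.31), tapas (-0.23) and AGO1 (-0.13) were among those that fell. The summed level of the list was 2555 to 2739 CPM in sham D4 and 2528 to 2708 CPM in sham D45 libraries, ranges that overlap almost wholly. Of 10 genes known to bind, splice or repair DNA transposons, 8 rose and 1 fell in sham flies, and 7 rose and 1 fell in D3Inj flies. Xrp1 and Irbp18, whose proteins bind the P element's ends as a pair, were at 1.05 and 0.56. Irbp (1.05) and Ku80 (0.63) form the Ku complex of DNA end joining, and Psi (-0.31) represses splicing of the P element's transcript in somatic cells.

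Cell type markers moved with age as well, and their part in the differences of the insertions was not tested. In a bulk sample fewer cells of a type and less RNA per cell cannot be told apart. All 5 neuron markers fell in sham flies, and their summed level was 9123 to 10628 CPM on D4 and 6781 to 7865 CPM on D45. Of 4 glia markers 2 rose and 2 fell (1867 to 2282 CPM on D4, 1426 to 1708 CPM on D45). Photoreceptor markers rose in 3 of 4 (16.4 to 275 CPM and 19.7 to 270 CPM), hemocyte markers in 3 of 4 (159 to 458 CPM and 291 to 756 CPM) and fat body markers in 1 of 5 (22.05 to 8293 CPM and 18.2 to 12360 CPM). Of the gut markers tested, 0 rose and 1 fell (0.775 to 1831 CPM and 0.980 to 147 CPM). Germline markers stayed near the limit of detection, with 4 in the tables (vas, bam, osk and bgcn, the first of which is also among the silencing genes), 2 of the 3 tested higher, and a sum of 0.0666 to 1.09 CPM on D4 and 0.656 to 2.14 CPM on D45.

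Each kind of sham fly gave fewer calls than the mean of the 4. In males 23 members rose and 35 fell (background 33.4%), in F 15 and 30 (28.2%), in V 18 and 23 (28.6%) and in SP 21 and 32 (27.9%). Without the libraries with gut markers the calls in V fell from 41 to 17, with 1 of 3 sham V D4 libraries left. Those of the mean went from 157 to 133. The difference between the ageing of males and of F was called for 0 members in edgeR (background 0.0831%) and 0 in DESeq2. It was called for 0 family sums (background 0.109%). At an unadjusted p under 0.05 in edgeR there were 21 of 355 members, and the share of all rows at that threshold was not counted. By family sums, 12 were called in males (background 36.8%), 7 in F (31.4%), 6 in V (32%) and 7 in SP (30.9%), and these counts depended on single libraries. Without sham M D4 replicate 1, 2 or 3 the count in males was 5, 7 or 7, and without M D45 replicate 1 or 3 it was 6 or 7. In V it was 3 without D4 replicate 1 and 1 without D45 replicate 3, and in F it was 4 without D4 replicate 3 and 3 or 4 without D45 replicate 1 or 2.

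Sex was compared between sham males and sham F females. On D4, 2 members were higher and 1 lower in males of 307 tested (background 6.25%), and on D45 1 was higher and 2 lower of 347 (background 4.25%). In edgeR 27 of 307 and 32 of 347 members had an unadjusted p under 0.05, and the share of all rows at that threshold was not counted. Groups of 3 libraries did not overlap for 12.7% and 12.4% of members, against 20.4% and 21.7% of all rows. No family sum was called on either day, in edgeR or in DESeq2 (backgrounds 7.59% and 5.25%). Without sham F D4 replicate 1 the D4 count was 6, and without sham F D45 replicate 3 the D45 count was 1.

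The member that differed on both days was transib2{}4381 (chrX:23005502-23006933, plus strand, outside genes). On D4 its level was 1.64, 1.64 and 1.92 CPM in sham males and 0.220, 0.591 and 0.293 CPM in F. On D45 it was 3.00, 3.01 and 3.28 CPM in males and 0.672, 0.300 and 0.346 CPM in F. Every male library was above every F library. The log2 difference was 2.22 (SE 0.54, edgeR adjusted p = 0.0129) on D4 and 2.76 (SE 0.39, edgeR adjusted p = 4.9e-05) on D45. Over all treatments and days, the 12 male libraries had 1.64 to 4.58 CPM and the 36 female libraries, virgin and SP0-mated ones included, 0.0312 to 0.883 CPM, with no overlap. It also rose with age, by 0.73 on the log2 scale. Its D4 call was lost without sham F D4 replicate 1 or 3, and without the libraries with gut markers it stood at 2.09 (edgeR adjusted p = 0.0750).

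The others differed on 1 day. 1360{}3688 (chrX:22711864-22712739, minus strand), in an intron of lncRNA:CR44997 and opposite to it, had 1.86, 2.05 and 2.29 CPM in D4 sham males and 5.10, 4.49 and 4.25 CPM in F. The log2 difference was -1.16 (SE 0.16, edgeR adjusted p = 4.8e-05), beside -0.33 for lncRNA:CR44997, and -0.63 on D45 (adjusted p = 0.127). 1360{}1539 (chr4:907917-908992, plus strand), in an untranslated region of unc-13 and opposite to it, had 6.36, 5.65 and 6.81 CPM in males and 4.40, 4.80 and 3.75 CPM in F on D4, a log2 difference of 0.53 (SE 0.13, edgeR adjusted p = 0.0167). All 3 male libraries lay above all 3 F libraries; on D45 the difference was 0.12. The call was lost in 3 of the fits that left out 1 library and without the libraries with gut markers.

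On D45, HB{}1605 (chr3R:31887801-31897206, minus strand, intron of heph, an RNA-binding splicing regulator, host strand) had 9.53, 9.74 and 9.34 CPM in sham males and 11.6, 13.6 and 14.7 CPM in F. The log2 difference was -0.48 (SE 0.11, edgeR adjusted p = 0.00616), it was 0.02 on D4, and the call was lost without sham F D45 replicate 3. transib2{}157 (chrX:18555434-18556897, plus strand, intron of Bx, a LIM-only transcriptional cofactor, host strand) had 2.08, 2.08 and 2.01 CPM in males and 3.34, 3.81 and 3.65 CPM in F. Its log2 difference was -0.81 (SE 0.21, edgeR adjusted p = 0.0226), beside -0.28 for Bx, and 0.07 on D4. In 5 of the fits that left out 1 library this call was lost. In both insertions the 3 male libraries lay below the 3 F libraries on D45.

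**Figure D4:**
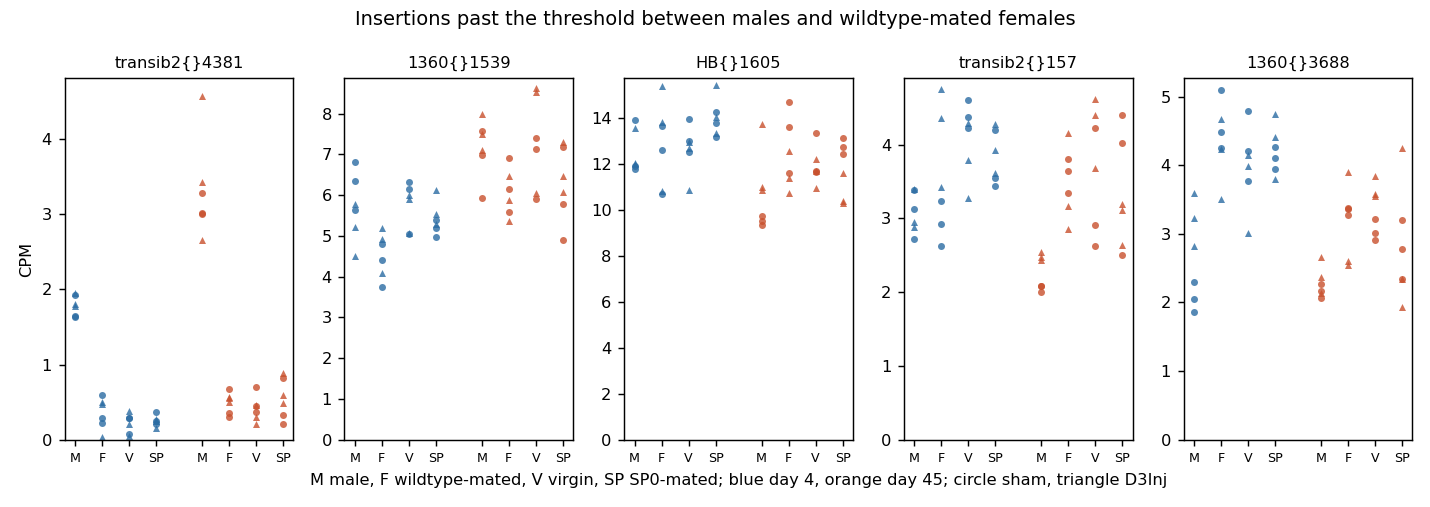
Level in CPM of the insertions called between sham males and sham wildtype-mated females, by library, day and kind of fly, with circles for sham and triangles for D3Inj. transib2{}4381 is higher in every male library, 1.64 to 4.58 CPM, than in every female library, 0.0312 to 0.883 CPM.

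Mating status was compared in sham females. Of V and of SP against F, on D4 and on D45, 0 members and 0 family sums were called in edgeR, and 0 in DESeq2. At an unadjusted p under 0.05 there were 23 and 25 of 307 members on D4 and 10 and 12 of 347 on D45, for V and SP. The share of all rows at that threshold was not counted. The smallest adjusted p of a member in edgeR was 0.230 and 0.348 on D4 and 0.999 and 0.441 on D45. The background at an adjusted p under 0.05 was as low. It was 0.0615% of rows for V on D4, 0.0131% for SP on D45 and 0 in the other comparisons. Of genes and family sums, 0.0571% were called for V and 0.0327% for SP on D4, and 0 on D45.

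The late and early differences after head trauma were read as D3Inj against sham, separately for each kind of fly on each day. In all 8 comparisons 0 members and 0 family sums were called, in edgeR and in DESeq2. At an unadjusted p under 0.05 there were 16, 15, 16 and 7 of 307 members in M, F, V and SP on D4. On D45 there were 22, 20, 5 and 21 of 347. The share of all rows at that threshold was not counted. The background at an adjusted p under 0.05 was 0.00683% of rows in M and SP and 0.0547% in V on D4, and 0 in the others. Of genes and family sums it was 0.00816% in M and SP and 0.0653% in V on D4, and 0 in the others. The smallest adjusted p of any member was 0.549, in males on D45. In these males the sum of family 1360 was 329.0, 329.2 and 304.5 CPM in sham and 355.2, 359.8 and 342.2 CPM in D3Inj libraries, with every D3Inj library above every sham library. There 17 of 19 family sums and 253 of 347 insertions had a positive log2 difference, with a median of 0.16 over insertions, beside 0.15 for all transposon insertions and -0.01 for genes. The transib3 sum had the smallest p, with a log2 difference of 0.33 and an edgeR adjusted p of 0.568. Groups did not overlap for 13.3% of the members, against 12.7% of all rows.

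The share of all counts that fell on members gave the same values by library. In D45 males it was 0.109% ± 0.00414 (SD, n = 3) in sham and 0.120% ± 0.00362 (SD, n = 3) in D3Inj libraries, an exact 2-sided permutation p of 0.1, the smallest that 3 against 3 libraries allow, and 0.8 adjusted over the 8 comparisons. The share of all transposon insertions was 0.795% and 0.872% in the same groups. In D45 F it was lower after D3Inj, 0.107% ± 0.00523 (SD, n = 3) against 0.115% ± 0.00361 (SD, n = 3), with an exact permutation p of 0.2. The other 6 comparisons had exact permutation p from 0.4 to 1. The difference between the D3Inj responses of males and F on D45 was called for 0 family sums in edgeR. There 9 had an unadjusted p under 0.05, and the median difference was 0.27 on the log2 scale, positive in 18 of 19 families. Males against SP were alike, with 0 called, 8 at an unadjusted p under 0.05, a median of 0.23 and 18 of 19 positive. For males against V these values were 0, 3, 0.15 and 15 of 19.

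**Figure D5:**
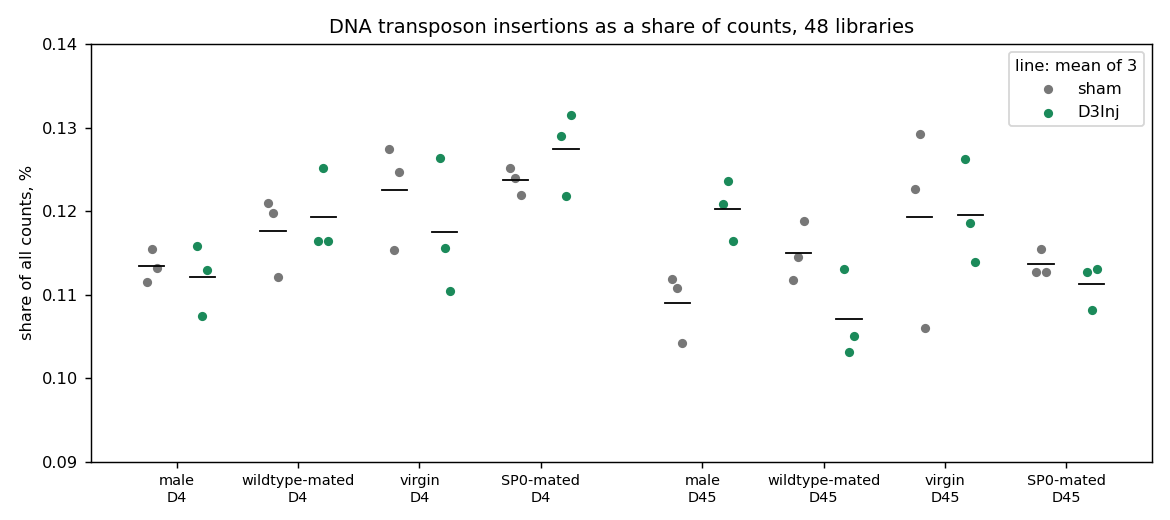
Share of all counts that fell on the members, in percent, by library for each kind of fly, treatment and day, with group means; the axis starts at 0.09. D45 males have the widest gap between sham (0.109%) and D3Inj (0.120%), and the groups of 3 overlap in most other comparisons.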

How the data were processed

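Paired-end libraries were made from ribosome-depleted brain RNA with a strand-specific kit. The authors checked reads with FastQC, aligned them to dm6 with STAR and counted them with featureCounts; their versions, the strand setting and the handling of reads with several matches are not stated in these sources. Counts were deposited without normalization, per gene and per transposon insertion, in 1 table for each library. Reads from near-identical copies or overlapping features may have been shared or dropped, so single insertions are uncertain to that degree.

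Insertions were placed with the Ensembl release 115 annotation (dm6 coordinates), which lacks 2 of the 6063 insertion rows. edgeR 4.0.16 (R 4.3.3) was run with TMM scaling, filterByExpr and the quasi-likelihood F test, with 1 coefficient per group, on the 24 libraries of D4, the 24 of D45, or all 48 for ageing. Benjamini-Hochberg adjustment covered all 14631, 15286 and 15640 rows tested, and the threshold was 0.05. Of the members, 307, 347 and 355 passed the filter. Members that passed it through the libraries of 1 day alone could be called with age only as higher on that day. Family sums replaced the insertion rows by 1 row per transposon family, and 18, 19 and 19 of the members' families were tested. CPM used the TMM library sizes. The scripts were tested on simulated data.

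Named are the family sums, the 12 insertions of highest mean CPM, and up to 6 called insertions of largest change per comparison with a mean of at least 0.2 CPM, with their hosts. Other insertions, the pairwise differences between kinds of fly and the groups by host were added after their values were seen. The members and lists were chosen with earlier results of these data known. Alternatives were DESeq2 1.42.0, no filter, a replicate block, the sample names of the record, sums outside genes, and leaving out single libraries or those with gut markers. The libraries of a group came from 3 cohorts. No sequence of an insertion was read.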

Additional observations from a re-analysis of the deposited data

How the results depend on the processing

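With DESeq2 and with the replicate block all 42 counts of calls stayed within 1.5 times, and all 53 named values kept their direction and their side of the threshold; under the block the sham ageing call counted 157 insertions and 15 family sums. Libraries of like number did not pair in a regular way. Correlations of like-numbered deviations ran from -0.207 (D3Inj against sham, F on D4, replicate 1) to 0.366 (V against F, sham, D4, replicate 1). For V against F on D4 they were 0.366, -0.0687 and 0.319, so some structure by replicate was present there. Taking the sample from the record in place of the header turned all 14 non-zero ageing and sex counts to 0. It also turned the sign of 1360{}3667 (0.084), Bari2{}1537 (0.065), FB{}nmo-FB-NOF (0.082), S2{}1172 (0.098), Tc1-2{}5456 (0.034), Tc1{}1550 (0.035), transib3{}1705 (0.10), transib4{}3834 (0.085), pogo{}5970 (-0.14) and, between the sexes, 1360{}3688 (0.13), transib2{}157 (0.19) and transib2{}4381 (-0.11). The same held for the sums of 1360 (0.069), Bari2 (0.049), FB (0.056), HB (0.032), S2 (0.099), Tc1 (0.031), Tc1-2 (0.055), Tc3 (0.065), hopper (0.0045), looper1 (0.016), transib3 (0.12) and transib4 (0.11). With sums outside genes, S2 (0.58) and transib4 (0.026) turned, and calls became 2 in males, 4 in F, 4 in SP and 1 for sex on D45. Without the filter 3 family sums were called in V. Without the libraries with gut markers, V had 17 insertions and 2 family sums called and F 4 family sums.

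Leaving out 1 library at a time gave 145 to 158 insertions for sham ageing and 141 to 155 for D3Inj ageing, 43 to 54 in M, 31 to 43 in F, 28 to 39 in V and 38 to 46 in SP, and 2 to 6 for sex on D4 and 1 to 3 on D45. Family sums gave 14 to 16 and 12 to 14 for the means, 5 to 8 in M, 3 to 7 in F, 1 to 7 in V and 5 to 8 in SP. Depth limits the low insertions: 1360{}1590 rests on 5 counts in sham D4 libraries. The edgeR p-values rest on 3 libraries a group, with the spread of each row estimated over all groups of a fit.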

Other observations

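The insertions that the tables name H and S, which the family names above do not match, were summed in the same way. In sham flies the H sum was lower on D45 than on D4 by -0.12 on the log2 scale (edgeR adjusted p = 0.0416), and the S sum was at -0.11 (adjusted p = 0.0717). In D3Inj flies the values were -0.12 (adjusted p = 0.0291) for H and -0.13 (adjusted p = 0.0311) for S.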
